A study of Mus musculus with 4 samples.

Results

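Laminins are large secreted proteins, each built from an alpha, a beta and a gamma chain that wind together into a cross-shaped or Y-shaped trimer. They polymerise into the sheet that starts a basement membrane, to which nidogens, collagen IV and heparan sulfate proteoglycans attach. In the heart a basement membrane surrounds each muscle cell and lies under the endothelium, and cells hold on to its laminins through integrins and through dystroglycan, which links to dystrophin inside the cell. Different chains serve different tissues, and the chains Lama3 and Lamb3 are best known from epithelia. The data concern 9 mouse genes for such chains: Lama2, Lama3, Lama4, Lama5, Lamb1, Lamb2, Lamb3, Lamc1 and Lamc3. They were chosen by name, with earlier results of these data known. The peaks were those that overlapped a window holding the gene and 50 kb on either side. Genes were as in GENCODE release M21 on build mm10. Other laminin chain genes were not analysed here. The 9 windows held 149 of the 63061 peaks of the replicated list.

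The mark is H3K27ac, the acetyl group on lysine 27 of histone H3 that is found at active promoters and enhancers, and it had been mapped in heart tissue by chromatin immunoprecipitation and sequencing (ChIP-seq). All 4 libraries came from adult B6CASTF1/J females of 2 months, which are hybrids of the strains C57BL/6J and CAST/EiJ, with no transgene or treatment named in the labels. The libraries make up 2 biological replicates with 2 technical replicates each. A biological replicate here is 1 pool made from 2 heart samples, and both pools carry the same donor identifier, so that their differences may be technical. The design has 1 condition and no second group, so the comparisons are among the 9 genes, between the genes and all protein-coding genes, and between the lists of the 2 pools.

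The authors deposited 4 lists of peaks: a replicated list from both pools, a pooled list called on pseudoreplicates of both, and 1 list for each pool. These held 63061, 63494, 55831 and 61333 peaks, in that order with replicate 1 before replicate 2. The peaks of replicate 2 covered 81.1 Mb and those of replicate 1 covered 54.4 Mb, so that lengths differ between the pools across the genome. Read depth is unknown. The tissue label was compared with marker genes by their promoter peaks. All 6 cardiomyocyte, 5 endothelial, 4 fibroblast and 4 mural cell markers had one. Of 5 epithelial markers none did: Krt5 and Krt14 had no peak within 50 kb, and Cdh1, Epcam and Trp63 had 5.75, 1.70 and 0.786 kb of acetylated sequence there. Heart tissue is a mixture, so fewer acetylated cells and less acetylation per cell cannot be told apart for any peak described here.

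Most of the 9 laminin chain genes were acetylated at their start in the heart, and several carried long stretches of acetylated sequence. What is given as acetylated length is the sum of sequence under peaks in the window of a gene. Its median over the 9 genes was 23.4 kb, beside 4.32 kb over 21938 protein-coding genes, of which 21.6% had none. The median of 23.4 kb is the value of Lamb3, of which 11.6 kb lay in peaks nearest to other genes. With peaks nearest to an annotated start of the member alone, the median was 11.8 kb. That is again the value of Lamb3, whose 5 such peaks were nearest to starts of its noncoding transcripts. With peaks of at least the median fold of the list alone, the median was 15.4 kb. Neither of these medians was taken over all coding genes, so 4.32 kb is no like comparison for them. Lamc1, the gamma chain found in most laminins, had the most, 34.5 kb, followed by Lama2 with 27.8 kb, Lama4 with 26.3 kb, Lama5 with 25.9 kb and Lamb3 with 23.4 kb. Lamb2 had 16.2 kb, Lamb1 had 11.7 kb, Lama3 had 5.54 kb and Lamc3 had 1.04 kb. Of the 9 genes, 8 had a peak within 1 kb of an annotated start, while 56.8% of all protein-coding genes had one. The exception was Lamc3, and the peak of Lama3 is weak and missing from the pooled list. When starts were limited to well supported coding transcripts (the basic set of the annotation), 7 of 9 had one in the replicated list and 55.5% of all protein-coding genes did. Lamb3 then joined Lamc3 as a gene without a peak at its start. The same 7 genes had such a peak in the list of replicate 1, where 53.9% of coding genes did, and in the list of replicate 2, where 56.5% did. Members of a list of 9 are not replicates, and no test was made of these counts.

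**Figure D1:**
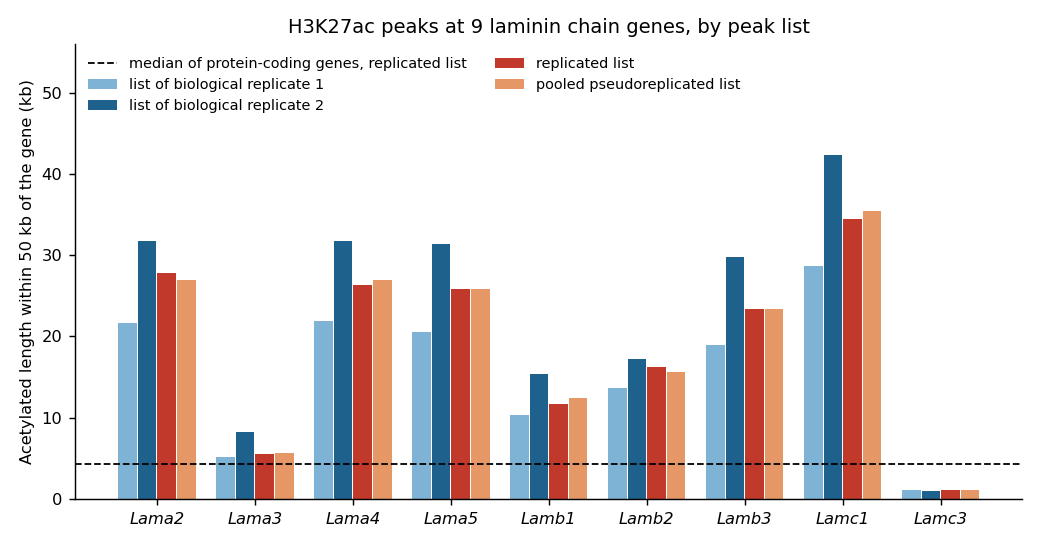
Acetylated length within 50 kb of each laminin chain gene, in kb, in the 4 deposited peak lists (bars), with the median of 21938 protein-coding genes in the replicated list as a dashed line at 4.32 kb. For 8 genes the bar of replicate 2 is higher than that of replicate 1, the exception being Lamc3, and Lamc1 has the tallest bar in each list.

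The order of the genes was read against the difference between the pools. In the list of replicate 1 the median over the 9 genes was 18.9 kb, and in that of replicate 2 it was 29.8 kb, while the median over coding genes was 3.54 and 5.28 kb. Lamc1 covered 28.7 kb in replicate 1 and 42.3 kb in replicate 2. Lama2 covered 21.6 and 31.7 kb, Lama4 21.9 and 31.8 kb, and Lama5 20.5 and 31.4 kb. These 3 neighbours in the order lay closer to each other within each list than any of them lay to itself in the other list, so their order is not resolved. Lamb3 (18.9 and 29.8 kb) lay below those 3 in each list by less than the gap between the pools, and Lamb2 (13.7 and 17.2 kb) overlapped Lamb1 (10.3 and 15.4 kb) in range. Lama3 (5.21 and 8.24 kb) lay below Lamb1 in both, and Lamc3 (1.05 and 0.999 kb) below Lama3 in both. As a percentile among coding genes of the same list, which takes out the overall difference, Lamc1 stood at 98.3 in replicate 1 and 98.6 in replicate 2, and Lamc3 at 29.7 and 25.1.

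Long genes have long windows, and the laminin genes range from 10.8 kb (Lamb2) to 640 kb (Lama2). Among coding genes of like length (10 equal classes), the percentiles of acetylated length were 96.0 for Lama5, 93.0 for Lamc1, 89.1 for Lama2, 88.6 for Lamb2, 88.0 for Lama4, 85.1 for Lamb3, 72.6 for Lamb1, 49.4 for Lama3 and 14.9 for Lamc3. The class of the longest genes held Lamc1 (114 kb), Lamb3 (136 kb), Lama4 (145 kb), Lama3 (249 kb) and Lama2 (640 kb). Lengths in that class differed widely, so its percentiles compare genes of only loosely like length. Lama2 was the gene whose place moved most when length was taken into account as a density. Peaks covered 3.76% of its 740 kb window, at the percentile 54.4 of coding genes, whereas they covered 17.4% of the window of Lama5 and 16.1% of that of Lamc1.

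**Figure D2:**
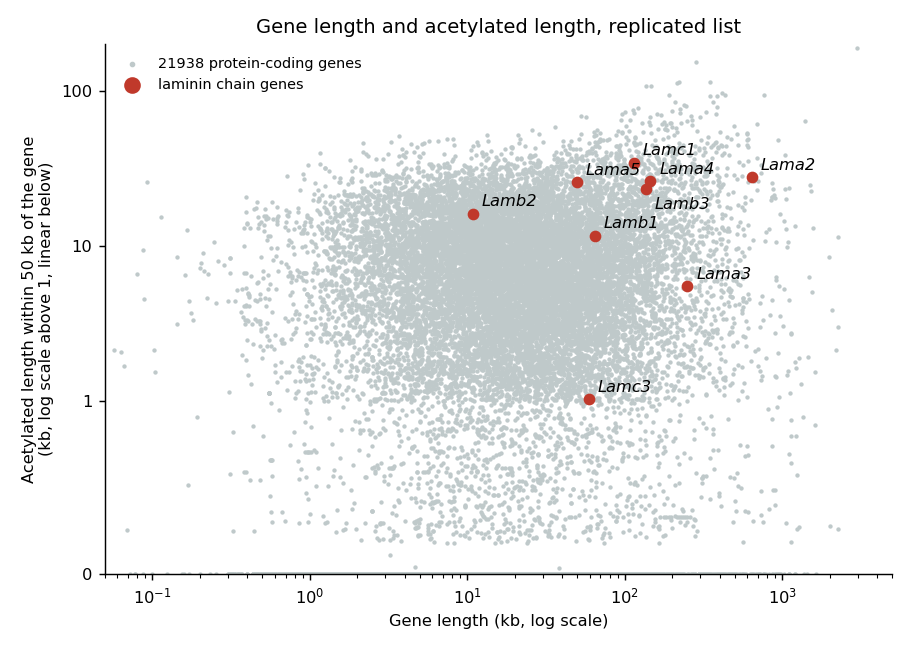
Gene length (kb, log scale) against acetylated length within 50 kb of the gene in the replicated list (kb, log scale above 1), for 21938 protein-coding genes (grey) and the 9 laminin chain genes (red). Lamc1, Lama2, Lama4, Lama5 and Lamb3 lie between 23.4 and 34.5 kb in the upper part of the cloud, Lama3 lies in its middle at 5.54 kb and Lamc3 near its lower part at 1.04 kb.

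The starts themselves differ in sequence, and are shown for the 5 genes that have an entry in the RefSeq promoter table (build GRCm38.p6, the assembly of mm10), because genes with and without a peak at the start can be set side by side in them. Each window runs 5′ to 3′ along the gene, from 250 bases before to 50 after the start, and CG pairs are in capitals.
Lama2, chr10:27616893-27617192, minus strand: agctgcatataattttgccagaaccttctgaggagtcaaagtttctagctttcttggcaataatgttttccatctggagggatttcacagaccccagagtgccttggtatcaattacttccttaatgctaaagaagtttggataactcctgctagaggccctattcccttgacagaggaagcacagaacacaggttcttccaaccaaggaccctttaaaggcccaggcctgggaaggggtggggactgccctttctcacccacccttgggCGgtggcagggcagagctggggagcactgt
Lama5, chr2:180225810-180226109, minus strand: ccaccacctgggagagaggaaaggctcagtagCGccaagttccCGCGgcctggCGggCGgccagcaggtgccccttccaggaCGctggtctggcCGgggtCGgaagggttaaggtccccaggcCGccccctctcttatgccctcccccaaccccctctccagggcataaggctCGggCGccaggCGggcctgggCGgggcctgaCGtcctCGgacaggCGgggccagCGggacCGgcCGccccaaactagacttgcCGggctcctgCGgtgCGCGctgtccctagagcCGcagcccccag
Lamb1, chr12:31265043-31265342, plus strand: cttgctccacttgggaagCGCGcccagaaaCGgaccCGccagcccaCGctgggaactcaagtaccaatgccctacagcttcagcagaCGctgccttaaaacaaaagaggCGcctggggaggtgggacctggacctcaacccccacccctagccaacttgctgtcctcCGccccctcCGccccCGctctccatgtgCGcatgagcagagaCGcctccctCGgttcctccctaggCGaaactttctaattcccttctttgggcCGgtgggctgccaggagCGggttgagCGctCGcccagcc
Lamb2, chr9:108479612-108479911, plus strand: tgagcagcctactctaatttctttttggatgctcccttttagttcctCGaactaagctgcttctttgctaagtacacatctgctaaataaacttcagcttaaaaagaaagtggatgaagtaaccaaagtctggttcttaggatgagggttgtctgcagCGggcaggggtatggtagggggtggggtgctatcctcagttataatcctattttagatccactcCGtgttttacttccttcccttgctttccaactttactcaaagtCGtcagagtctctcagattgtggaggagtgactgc
Lamb3, chr1:193301744-193302043, plus strand: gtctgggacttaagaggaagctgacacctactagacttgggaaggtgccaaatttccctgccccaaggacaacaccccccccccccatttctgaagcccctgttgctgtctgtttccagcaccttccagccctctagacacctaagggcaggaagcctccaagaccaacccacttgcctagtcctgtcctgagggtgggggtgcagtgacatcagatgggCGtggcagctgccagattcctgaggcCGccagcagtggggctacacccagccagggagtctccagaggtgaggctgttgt
The first 4 windows were covered by a peak over all 300 bases in each of the 4 lists, and the Lamb3 window by none. The counts of CG pairs were 24 for Lama5, 18 for Lamb1, 4 for Lamb2, 1 for Lama2 and 2 for Lamb3, where the median of 32817 such windows of all genes was 7. The window of a second RefSeq start of Lamb3, at chr1:193301993-193302292, held 5 CG pairs and no peak either. Acetylated starts of laminin genes were thus found both among CG-rich windows (Lama5, Lamb1) and CG-poor ones (Lama2, Lamb2). The sequence GGGCGG, which SP and KLF factors bind, was found on either strand 4 times in the Lama5 window, 2 times in that of Lamb1 and 1 time in that of Lama2, and 35.6% of all windows held it. The sequence AGGAAG, a core of ETS factor sites, was found 2 times in the windows of Lama2 and Lamb3 and 1 time in that of Lamb2, and 35.4% of all windows held it. The Lama2 window also held 1 CArG box, the site of serum response factor, which 1.63% of all windows held.

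The alpha chains decide which receptors a laminin binds. Lama2 encodes the alpha chain of the laminin around muscle fibres, and its loss causes a congenital muscular dystrophy in humans. The gene lies on the minus strand at chr10:26980036-27619758. It had 34 peaks, and all 34 had Lama2 as the coding gene with the nearest start, since no other coding gene lies within 50 kb. The peak over its coding start was 3.12 kb wide (27614535 to 27617657), with a deposited fold of 13.1, which is the authors' ratio for the peak and ranked at the percentile 69.4 of all promoter peaks. It was 3.07 kb wide in the list of replicate 1 and 3.18 kb in that of replicate 2. A further annotated start, 2.92 kb upstream and belonging to a retained-intron transcript, had no peak within 1 kb. Inside the gene 32 peaks had their summit in an intron, the start peak among them. Introns were numbered along the longest coding transcript: intron 1 held 9 peaks with 7.39 kb, of which the start peak made up 3.12 kb, and intron 4 held 11 with 7.01 kb. Folds ran from 2.53 to 13.1, that of the start peak, in intron 1 and from 1.95 to 6.65 in intron 4. The 2 next highest folds of the window lay before the gene, 8.63 at 5.68 kb and 7.20 at 36.0 kb upstream of the start.

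Lama4 encodes a short alpha chain of vessel walls and also of muscle. It lies on the plus strand at chr10:38965515-39110188. Its start peak was 5.70 kb wide (38963644 to 38969339), at the percentile 98.1 of the width of promoter peaks and 89.3 of their fold (20.6). The width was 5.37 kb in replicate 1 and 7.01 kb in replicate 2. Beside it, at 3.06 kb upstream, lay a peak of 2.11 kb with fold 10.6. The acetylation then ran on into intron 1, where 8 peaks covered 16.4 kb with folds of 2.67 to 7.24. When peaks within 12.5 kb were joined, this start formed a region of 44.8 kb with 11 peaks and 24.5 kb of covered sequence, which ranked 256 by covered length at the percentile 98.8 of all joined regions. The rest of the gene held little: 1 peak each in introns 2 and 4, and both overlapped a peak of replicate 2 but none of replicate 1.

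Lama5 encodes the alpha chain of many endothelial and epithelial basement membranes. It lies on the minus strand at chr2:180176373-180225859, in a row of other genes. Of its 24 peaks, 11 (16.8 kb) were nearest to its own start and 13 (9.19 kb) to the start of another gene. The 2 highest folds of the window, 16.5 and 16.3, belonged to the starts of Adrm1, a ubiquitin receptor of the proteasome, and Cables2. A pair of peaks flanked the start of Lama5: 1 of 1.91 kb over the start with fold 13.6 (180224401 to 180226305) and 1 of 1.94 kb just before it with fold 10.8. The widest peak of the window lay in intron 2, 7.25 kb into the gene, and measured 6.94 kb (180213876 to 180220813) with fold 7.49. It overlapped 4 separate peaks of replicate 1 and 1 of replicate 2. Joined, the 11 peaks over the start and the first part of the gene made a region of 24.7 kb, with the rank 559 and the percentile 97.3.

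Lama3 encodes the alpha chain of the laminin that anchors the epidermis. It lies on the plus strand at chr18:12333819-12583013. Of the 5.54 kb in its window, 3.56 kb lay in 2 peaks before the gene that were nearest to Ankrd29, of which the stronger had fold 13.4. The 5 peaks nearest to Lama3 covered 1.97 kb in all, with no fold above 4.64. The peak at its first start was 0.214 kb wide with fold 2.84, at the percentiles 1.64 of width and 4.64 of fold among promoter peaks. It overlapped a peak of replicate 1 and none of replicate 2, whose list had another peak of 0.396 kb within 1 kb of that start, and the pooled list had none there. A second coding start 170 kb downstream had no peak in the replicated list or in that of either pool.

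**Figure D3:**
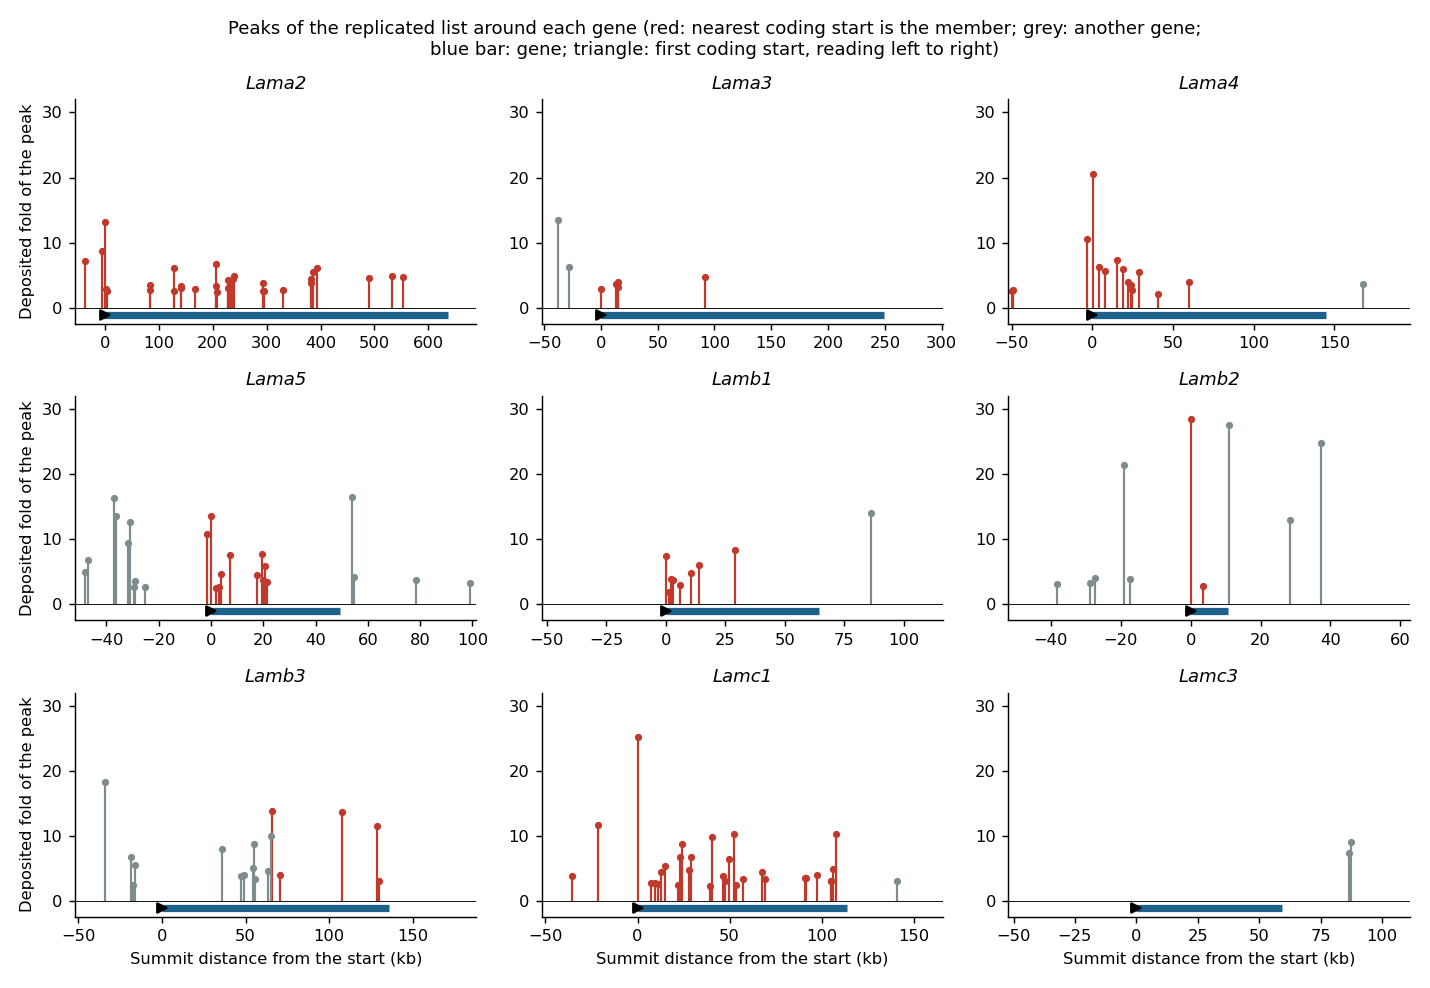
Each panel shows the peaks of the replicated list around 1 gene as lines, by summit distance from the first coding start in kb along the direction of transcription (x) and deposited fold (y). Red peaks have the member as the coding gene with the nearest start and grey peaks another gene, the blue bar is the gene and the triangle its start. Lama4 and Lamc1 show a dense row of red peaks after the start, Lama2 a sparse row across the gene, Lamb2 a single tall red peak among tall grey ones, and Lamc3 no red peak.

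The start peaks of the beta chains also ranged widely, and Lamb3 had none at a coding start. Lamb2 encodes the beta chain of synaptic, glomerular and arterial basement membranes. It is the shortest of the 9 genes, on the plus strand at chr9:108479736-108490530. Its start peak was 4.83 kb wide (108478139 to 108482966) with fold 28.4, at the percentile 97.4 of the fold of promoter peaks, and ranked first by fold among the 149 peaks. In replicate 1 it overlapped 2 peaks with 4.67 kb in all, and the piece within 1 kb of the start was 4.42 kb wide. In replicate 2 it overlapped 1 peak of 5.76 kb. That peak and a small one in intron 12 were the 2 nearest to Lamb2, with 5.48 kb, and the other 8 peaks (10.7 kb) were nearest to other genes. Among these were the starts of Usp19, a deubiquitinating enzyme, with fold 27.6 beyond the 3′ end of Lamb2, and of Qrich1 with fold 24.7. Peaks nearest to Lamb2 made up 33.8% of the acetylated length around it.

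Lamb1 encodes the widespread beta chain that pairs with most alpha chains. It lies on the plus strand at chr12:31265234-31329644. Its start peak was 1.46 kb wide (31264723 to 31266180) with fold 7.38, at the percentile 42.9 of fold and 65.5 of width. It was 1.32 kb wide in replicate 1 and 1.60 kb in replicate 2. The highest fold among peaks nearest to Lamb1 was found inside the gene, 8.34, in a peak of 2.74 kb in intron 12, 29.1 kb after the start (31293191 to 31295931). Of its 9 peaks, 8 overlapped peaks of both pools. The ninth peak of the window by position, 1.34 kb with fold 14.0 and the highest fold there, lay at the start of Dld, an enzyme subunit of the mitochondrial dehydrogenase complexes.

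Lamb3 encodes the beta chain of the same epidermal laminin as Lama3. In GENCODE it lies on the plus strand at chr1:193207699-193343878, a span that also contains the genes Hsd11b1, which reactivates glucocorticoids, and G0s2, an inhibitor of triglyceride breakdown. In RefSeq it is shorter, from 193294353 to 193343878. Its 3 starts of basic coding transcripts lie at 193207725, 193301993 and 193302243, and none had a peak nearby (1 kb) in any of the 4 lists. The peak that counts as a promoter peak under all annotated starts lay at the start of a noncoding transcript at 193273338, with a width of 0.509 kb and fold 13.8, beside the peaks of G0s2. Of 17 peaks in the window, 12 (11.6 kb) were nearest to other genes, among them the start of A130010J15Rik with fold 18.3, the highest of the window. The other 5 covered 11.8 kb, of which 10.3 kb lay in 3 peaks inside the RefSeq gene. All 5 counted as nearest to Lamb3 through starts of noncoding transcripts, at 193273338 and 193320695. A peak of 3.34 kb in intron 7 (193314849 to 193318186) had fold 13.6, and a peak of 6.74 kb in intron 22 (193330449 to 193337185) had fold 11.5. Both overlapped peaks of each pool. Lamb3 was thus acetylated within the gene over 2 wide stretches without a peak at its coding starts. Which gene these stretches act on was not measured.

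The gamma chains were the extremes of the family. Lamc1 lies on the minus strand at chr1:153218922-153332786, and had 31 peaks, of which 30 (34.0 kb) were nearest to its own start. Its start peak was 4.89 kb wide (153329254 to 153334141) with fold 25.1, at the percentiles 97.0 of width and 95.1 of fold among promoter peaks. In replicate 1 it overlapped 2 peaks with 4.68 kb in all, and the piece within 1 kb of the start was 3.08 kb wide. In replicate 2 it overlapped 1 peak of 5.19 kb. Intron 1 held 20 peaks with 19.8 kb and folds of 2.30 to 10.3, and 13 of these 20 overlapped peaks of both pools. With the start they formed a joined region of 70.7 kb with 21 peaks and 24.6 kb covered, which ranked 249. Near the other end of the gene, in intron 26, lay a peak of 2.58 kb with fold 10.3, 108 kb from the start. Before the gene, at 21.3 kb, lay a peak of 2.44 kb with fold 11.6 (153353458 to 153355899), the second fold of the window.

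Lamc3, a gamma chain of restricted distribution, lies on the plus strand at chr2:31887291-31946539. It had no peak in the gene or before it in any of the 4 lists. The 2 peaks of its window, of 0.517 and 0.526 kb with folds of 7.26 and 8.98, lay beyond its 3′ end at the start of Nup214, a component of the nuclear pore, and no peak was nearest to Lamc3.

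Away from starts, 84 peaks of the 9 windows were distal, over 2.5 kb from any annotated start. For 4 of the laminin genes, the sequence around the summit of the nearest distal peak of highest fold is shown. Each stretch has 200 bases on the plus strand of mm10. Capitals mark matches to the sequences searched, which were AGATAA for GATA factors, AGGAAG for ETS factors, GGAATG for TEAD factors, TGANTCA for AP-1, GGGCGG for SP and KLF factors, AGGTCA for nuclear receptors, the MEF2 site and the CArG box, on either strand.
Lama4, chr10:38980498-38980697: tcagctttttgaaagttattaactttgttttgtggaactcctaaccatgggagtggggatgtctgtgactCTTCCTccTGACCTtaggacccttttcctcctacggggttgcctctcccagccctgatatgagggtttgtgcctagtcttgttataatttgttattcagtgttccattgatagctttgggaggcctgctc
Lamb1, chr12:31294236-31294435: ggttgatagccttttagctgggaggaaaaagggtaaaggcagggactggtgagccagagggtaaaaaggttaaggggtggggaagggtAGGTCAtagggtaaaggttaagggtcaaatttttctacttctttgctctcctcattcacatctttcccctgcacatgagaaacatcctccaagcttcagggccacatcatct
Lamb3, chr1:193315842-193316041: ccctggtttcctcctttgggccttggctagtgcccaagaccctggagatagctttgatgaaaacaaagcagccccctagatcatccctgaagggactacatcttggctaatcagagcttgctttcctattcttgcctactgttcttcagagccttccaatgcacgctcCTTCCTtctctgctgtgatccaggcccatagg
Lamc1, chr1:153353960-153354159: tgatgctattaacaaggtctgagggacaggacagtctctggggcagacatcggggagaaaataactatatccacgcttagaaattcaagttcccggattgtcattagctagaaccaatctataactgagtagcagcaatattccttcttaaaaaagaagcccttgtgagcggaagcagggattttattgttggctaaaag
The Lama4 stretch, from the peak of 6.19 kb in intron 1, held 1 match to AGGAAG and 1 to AGGTCA, the Lamb1 stretch 1 to AGGTCA, and the Lamb3 stretch from intron 7 held 1 to AGGAAG. The Lamc1 stretch, from the peak upstream of the gene, held no match, so it has no capitals. Stretches of Lama2, Lama5 and Lamb2 taken the same way are not shown. That of Lama2 held no match, that of Lama5 1 to AGGAAG and that of Lamb2 1 to AGGTCA. Over the 300 bases around the summits of all 84 distal peaks, AGATAA was found in 21.4%, where 15.6% of the 37273 distal peaks of the list held it. AGGAAG was found in 40.5% and 38.1%, GGAATG in 20.2% and 17.2%, AGGTCA in 23.8% and 20.7%, TGANTCA in 4.76% and 9.57%, the MEF2 site in 4.76% and 4.67%, the CArG box in 4.76% and 1.56%, and GGGCGG in 4.76% and 4.88%. The CArG box share rests on 4 peaks. Of the 84 distal peaks, 76 were nearest to the start of a laminin gene. Among these 76, 2.63% held the CArG box and 2.63% the MEF2 site, which is 2 peaks each. AGATAA was found in 17 of the 76, AGGAAG in 31, GGAATG in 15, AGGTCA in 19, TGANTCA in 4 and GGGCGG in 3. Over the 300 bases around the summits of the 43 promoter peaks of the windows, AGGTCA was found in 23.3% and TGANTCA in 11.6%. Of all promoter peaks 15.0% and 4.81% held them there, and the TGANTCA share rests on 5 peaks. AGGAAG was found in 25.6% against 32.7%, GGGCGG in 34.9% against 36.1%, GGAATG in 11.6% against 12.6%, AGATAA in 9.30% against 7.49%, and the MEF2 site in 2.33% against 1.89%. The CArG box was in none of the 43, and in 1.03% of all promoter peaks. Only 16 of the 43 were nearest to the start of a laminin gene, and the others to starts of neighbouring genes. Among the 16, AGGTCA was found in 4, TGANTCA in 3, AGGAAG in 3, GGGCGG in 5, GGAATG in 2, AGATAA in 1 and the MEF2 site in 1. These matches are descriptions of letters, and no binding was measured.

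The peaks of the laminin windows were recovered in the 2 pools about as often as peaks in general. Of the 149 peaks, 107 shared at least 1 bp with a peak of replicate 1 and with one of replicate 2, or 71.8% (95% exact binomial interval 63.9% to 78.9%), and 73.0% of the whole list did. A further 25 overlapped a peak of replicate 2 alone, 7 of replicate 1 alone and 10 of neither. The interval takes the peaks as independent, although some neighbouring peaks overlapped the same peak of a pool, and it covers no other error. The replicated list was made from the same 2 pools, so the overlap is in part built in. The peaks found in both had a median fold of 5.52 and were 1010 bp wide at the median. Those found in replicate 2 alone had 3.03 and 400 bp, those in replicate 1 alone 2.75 and 294 bp, and those in neither 2.70 and 214 bp. By gene, the share found in both ran from 8 of 15 peaks at Lama4 (53.3%) to 8 of 9 at Lamb1 (88.9%) and 2 of 2 at Lamc3. By length, the share of sequence acetylated in either pool that was acetylated in both ran from 52.3% at Lama3 to 78.7% at Lamb2. At the edges of the windows, 5 peaks lay within 5 kb inside, with folds of 2.56 to 6.73, and 4 lay within 5 kb outside, with folds of 2.92 to 4.33.

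**Figure D4:**
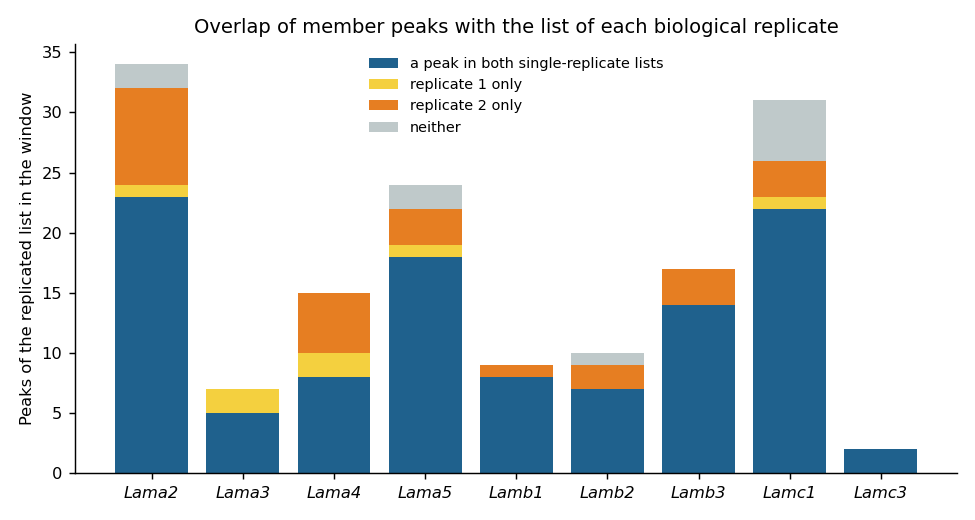
Number of peaks of the replicated list in the window of each laminin chain gene (y), divided by whether they overlapped a peak in the list of both biological replicates, of 1 of them or of neither. Lama2 (34), Lamc1 (31) and Lama5 (24) had the most peaks, and 107 of the 149 were found in both lists.

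Laminin chains work with the proteins they bind, and these were described from a list of 35 partner genes. The list was chosen with earlier results of these data known, so its counts are a description only. All 35 had a peak within 1 kb of an annotated start, where the share of coding genes was 56.8%, and 34 had one at a start of a basic coding transcript (55.5%), Nid1 being without one. Their median acetylated length was 12.0 kb. Among the 13 other basement membrane genes (median 13.3 kb), the collagen IV pair Col4a2 and Col4a1 had the most, 108 and 72.1 kb, with windows that overlap and a start peak that both share. The 7 laminin receptors had a median of 17.9 kb, led by Bcam with 26.7 kb, a receptor of alpha 5 laminins, and Itga6 with 24.0 kb, an integrin alpha chain. The 7 genes of the dystrophin complex had 11.5 kb, led by Sgca (alpha-sarcoglycan, 24.6 kb) and Utrn (utrophin, a relative of dystrophin, 22.2 kb). The 8 enzymes that build the laminin-binding glycan of dystroglycan had 9.40 kb, among them Pomgnt1 with 13.3 kb. The start peaks of the partners differed widely. Dag1, which encodes dystroglycan itself, had a start peak of 4.42 kb with fold 20.4, while that of Col18a1 was 0.322 kb with fold 3.60 and that of Itgb4, a chain of the integrin that binds epidermal laminin, was 0.585 kb with fold 3.70.

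**Figure D5:**
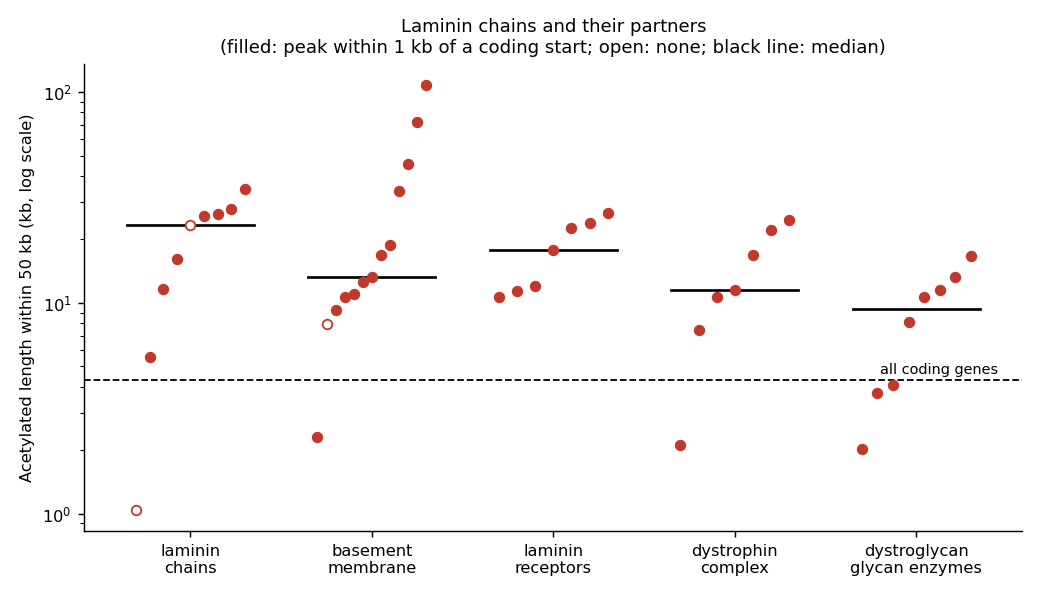
Acetylated length within 50 kb of each gene (kb, log scale) for the 9 laminin chain genes and 35 partner genes in 4 roles (points), with the median of each role (black line) and of all coding genes (dashed line at 4.32 kb). Filled points have a peak within 1 kb of a coding start; the 3 open points are Lamb3, Lamc3 and Nid1.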

How the data were processed

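The data are H3K27ac ChIP-seq peak lists of heart tissue on mm10, per the labels. Peaks had been called on joined technical replicates, and no list has a value for a single library; which list came from which replicates is given by the text files deposited beside the libraries. For each peak the authors deposited a fold, taken for a ratio over control since that is the usual meaning of its column in this format, and a −log10 q. These values were used only to rank, describe or filter peaks within 1 list. Aligner and peak caller: not given in the sources used here. Depth is unknown. Reads of a strain hybrid were placed on mm10, the reference of C57BL/6J; what strain variants did to the peaks was not tested.

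Peaks were joined to GENCODE M21 genes and RefSeq promoter sequences (GRCm38.p6) with Python 3.11.15, numpy 2.4.6 and pandas 2.3.3. A peak is intronic by its summit. Introns were numbered along the longest coding transcript. Percentiles count ties by 50%. Partner symbols absent from GENCODE M21 were matched through RefSeq synonyms. The steps were first tested on simulated peaks with known answers. There is 1 condition, so no test was made. The members, partner list and markers were chosen with earlier results of these data known. Every member is named; of the partners, the 2 with the most acetylated length in each role; of the neighbours, the coding gene nearest to the 3 peaks of highest fold in each window. Some genes that this rule selects, and some markers, are not reported here. Nid1, Dag1, Col18a1, Itgb4, Hsd11b1 and G0s2 were named after their values were seen. No RefSeq promoter is shown for Lama3, Lama4, Lamc1 and Lamc3.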

Additional observations from a re-analysis of the deposited data

How the results depend on the processing

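No paired analysis was possible because the lists give 1 value per pool of 1 condition and no test was made. The count of laminin genes with a promoter peak stayed between 6 and 8 of 9 under 9 alternatives, 1 of them (starts of basic coding transcripts alone) added after the data were seen, and that of partner genes between 31 and 35 of 35. Of all coding genes 56.8% had one in the replicated list, 57.0% in the pooled list and 55.5% at starts of basic coding transcripts. Their share was not taken under the other distances, the 5′ end alone or the fold and q filters. Using 1 pool at a time, 8 of the 9 genes had a promoter peak under either list. Of all coding genes 55.2% had one in replicate 1 and 57.9% in replicate 2. The median acetylated length of the 9 genes ran from 18.9 to 29.8 kb and their peaks from 134 to 148. The partners' median ran from 10.1 to 15.8 kb. In the pooled list Lama3 lost its promoter peak. With peaks of at least the median fold alone, the median acetylated length of the laminin genes was 15.4 kb, their peaks numbered 69 and 98.6% of these were in both single-replicate lists. When 50% of both peaks had to overlap, 47.0% of all peaks in the windows were in both lists. Neither share was taken over the whole list under the same setting, so neither can be compared with peaks in general. With peaks nearest to an annotated start of the member alone, the median was 11.8 kb, the value of Lamb3 through starts of noncoding transcripts. In the gene body with 5 kb on either side, the partners' median was 7.24 kb. The other alternatives moved these results by less than the spread between the pools, the counting interval or 1.5 times. For the lengths of single genes, 4 of 27 alternatives moved by at least that gene's spread between the pools. These were Lama3, Lamb1 and Lamc3 in the list of replicate 2 and Lamb2 in that of replicate 1. That spread is the standard deviation of the 2 single-pool values, so it is no separate yardstick for the single-pool lists. With no read counts, what depth limits is unknown.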
